A study of Mus musculus with 4 samples.

Results

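The Neurog3+ enteroendocrine progenitors were 391 single cells of the injured mouse pancreas, out of 2586 tuft and enteroendocrine cells, 13362 cells with a deposited type and 21140 cells in all. They were the cells that the authors' deposited annotation of tuft and enteroendocrine cells called EEC-Progenitor (Neurog3+), and 45, 166, 85 and 95 of them came from the 4 mice. All mice carried Ptf1aCre-ERTM and ROSAYFP/+ on a background backcrossed into CD-1, so that tamoxifen switched on EYFP, a yellow fluorescent protein, in cells in which the Ptf1a gene was active, which in the adult pancreas are the acinar cells. Tamoxifen was given by gavage at 5 mg per day on 5 days a week before injury, and all mice were 10 weeks old when injury began. Caerulein, a peptide that overstimulates acinar cells and causes pancreatitis, was then injected into the abdomen over 2 weeks in 2 mice and over 4 weeks in the other 2. Live EYFP+ cells of the whole pancreas were sorted and sequenced by droplet 3′ single-cell RNA sequencing with unique molecular identifiers (UMIs), in which each UMI stands for 1 captured RNA molecule. No uninjured mouse was analysed here, so values are compared between times and between cell types only. Mice are called 2-week mouse 1, 2-week mouse 2, 4-week mouse 1 and 4-week mouse 2, and 4 values in a row follow that order.

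Neurog3 is a basic helix-loop-helix transcription factor that commits an epithelial cell to an endocrine fate. In the embryonic pancreas and in the intestine and stomach its expression is brief: a cell released from Notch signalling switches Neurog3 on, leaves the cell cycle, and passes control to a wave of factors such as Neurod1, Insm1, Nkx2-2 and Pax4. Hormone genes, secretory granule proteins and the factors that choose between hormone cell types come on later, when Neurog3 is already falling. Acinar cells of the healthy adult pancreas make digestive enzymes, not hormones, and injury can turn them into mucin-making and duct-like cells.

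Basic helix-loop-helix factors such as Neurog3 and Neurod1 bind the short DNA sequence CANNTG, called an E-box. The 250 bases before the transcription start are shown for 4 factors of the commitment list below, all of them higher in these cells than in MucinDuctalProgenitor cells, with each CANNTG in capitals, 5′ to 3′ on the strand of the gene. The windows are RefSeq's on GRCm38.p6: chr10:62132840-62133089 on the plus strand for Neurog3, chr2:79456637-79456886 on the minus strand for Neurod1, chr2:147186403-147186652 on the minus strand for Nkx2-2 and chr11:98329646-98329895 on the minus strand for Neurod2.
Neurog3: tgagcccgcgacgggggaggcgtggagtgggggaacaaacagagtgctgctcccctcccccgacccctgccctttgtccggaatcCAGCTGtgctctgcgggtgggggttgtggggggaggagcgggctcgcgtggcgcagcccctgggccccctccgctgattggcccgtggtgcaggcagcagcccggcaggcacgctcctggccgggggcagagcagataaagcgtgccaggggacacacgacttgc
Neurod1: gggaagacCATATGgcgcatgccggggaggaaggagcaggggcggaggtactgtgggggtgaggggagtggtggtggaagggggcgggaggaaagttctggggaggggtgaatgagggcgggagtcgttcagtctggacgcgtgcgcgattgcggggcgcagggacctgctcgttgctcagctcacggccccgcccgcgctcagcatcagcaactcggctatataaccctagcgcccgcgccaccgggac
Nkx2-2: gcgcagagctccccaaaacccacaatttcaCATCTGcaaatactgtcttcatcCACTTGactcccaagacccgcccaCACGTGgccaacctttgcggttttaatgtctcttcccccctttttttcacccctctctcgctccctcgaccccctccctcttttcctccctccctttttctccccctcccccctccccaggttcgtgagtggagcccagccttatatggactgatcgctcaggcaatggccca
Neurod2: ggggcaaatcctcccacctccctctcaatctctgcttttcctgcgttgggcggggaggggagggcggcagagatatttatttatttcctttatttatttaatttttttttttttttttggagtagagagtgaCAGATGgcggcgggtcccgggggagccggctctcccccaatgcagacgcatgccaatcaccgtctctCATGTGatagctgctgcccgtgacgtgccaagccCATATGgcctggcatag
The Neurog3 and Neurod1 windows each held 1 CANNTG, and those of Nkx2-2 and Neurod2 held 3 each. Of 18 genes in the commitment list, 14 had a window in the RefSeq table, with 19 windows between them. CANNTG, which reads as CANNTG on the other strand too, occurred in 15 of the 19 (78.9%), against 66.2% of all 32851 promoter windows of that length. The stricter form CAGATG, searched on both strands and itself a CANNTG, occurred in 2 of the 19 (10.5%), against 14.4% of all windows. A match is not a measured binding site.

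The 391 cells held 5282335 UMIs, with a median of 12922 UMIs and 3840 genes per cell. Median depth was 12971, 14480, 11756 and 11361 UMIs per cell, and the median mitochondrial share was 2.25%. No cell barcode of these cells occurred in more than 1 library, while 67 barcodes did so among all 21140 cells. No doublet caller was run, and leaving out the 5% of cells with the most UMIs served as an alternative. Levels are given as CPM, the counts of a gene per 1000000 UMIs summed over the cells of a mouse, and sums of fewer than 20 cells were left out of means and ratios unless stated. The p-values measure the spread between these 4 mice. In bulk sums, fewer cells with a transcript and less of it per cell cannot be told apart, so shares of cells with a UMI are given beside the levels that matter most.

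Most of the cells carried Neurog3, which names their label, and Insm1 and Neurod1, taken here as further markers. Neurog3 stood at 2629.6 and 2322 CPM in the 2-week mice and 2406 and 2287 CPM in the 4-week mice (mean 2411 ± 154 CPM, SD, n = 4), Insm1 at 837 and 1001 CPM in the 2-week mice and 788 and 945 CPM in the 4-week mice, and Neurod1 at 601 and 702 CPM in the 2-week mice and 668 and 701 CPM in the 4-week mice. The 4 mice were within 1.5-fold of each other for each of the 3. Among the 391 cells, 333 had a Neurog3 UMI, 358 an Insm1 UMI and 277 a Neurod1 UMI. There were 258 cells (66.0%) with all 3 together and 26 with none of the 3. All 3 were found together in 96 of 377 Epsilon (Ghrl+) cells, 22 of 217 ECL (Tac1+) cells, 6 of 144 Delta (Sst+) cells, 5 of 140 Ppy+ cells, 0 of 156 MucinDuctalProgenitor cells and 0 of 494 Tuft-3 cells. The first 4 of these are the hormone-named enteroendocrine subtypes of the annotation, with 878 cells in all, and MucinDuctalProgenitor is its other progenitor label.

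The progenitors made up very different shares of the enteroendocrine cells in the 2-week mice and similar shares in the 4-week mice. Of the progenitor and hormone-named cells together, they were 16.7% (45 of 269, exact Clopper-Pearson 95% interval 12.5% to 21.7%) in 2-week mouse 1 and 42.8% (166 of 388, 37.8% to 47.9%) in 2-week mouse 2. The share was 27.4% (85 of 310, 22.5% to 32.7%) in 4-week mouse 1 and 31.5% (95 of 302, 26.3% to 37.0%) in 4-week mouse 2. Both 4-week mice thus lay between the 2-week mice, and the means were 29.8 ± 18.4% and 29.4 ± 2.86% (SD, n = 2 each). These intervals cover counting error only.

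Among all cells with a deposited type the progenitors were 1.51%, 4.62%, 3.02% and 2.39%, with 2-week mouse 2 again the highest and 2-week mouse 1 the lowest. For each MucinDuctalProgenitor cell there were 9.0, 1.41, 6.54 and 4.75 progenitors, where 2-week mouse 2, with 118 of the 156 MucinDuctalProgenitor cells, was the lowest. None of the 3 was shown to differ between 2 and 4 weeks by the two-sided exact permutation test (p = 1 for all 3, also after Benjamini-Hochberg adjustment over the 3), and with 2 mice a group the smallest p possible is 0.333. The differences of 4 weeks minus 2 weeks were -0.318 percentage points of the enteroendocrine cells, -0.36 points of the typed cells and 0.65 on the log2 scale for the ratio. Each was smaller than the SD of the 2-week mice. Leaving out 2-week mouse 2 turned all 3 directions, to 12.7 points, 1.20 points and -0.69, and leaving out 4-week mouse 1 turned the first to 1.70 points.

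**Figure D1:**
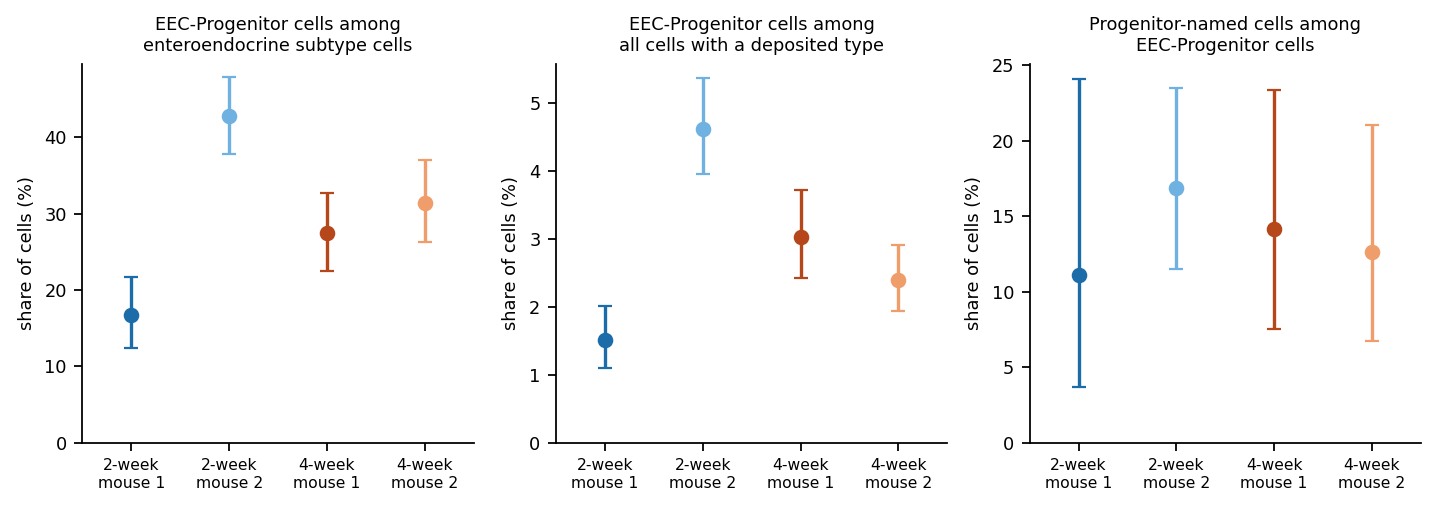
Progenitors as a percentage of enteroendocrine subtype cells (left) and of all cells with a deposited type (middle), and progenitor-named cells as a percentage of the progenitors (right), by mouse. Points are the share in 1 mouse and bars the exact 95% interval; the 2-week mice hold the lowest (16.7%) and the highest (42.8%) share of enteroendocrine cells, and the intervals overlap in all mice on the right.

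Among the labelled cells, Neurog3 varied widely from cell to cell. The median cell had 26 Neurog3 UMIs, the middle 50% of cells ranged from 6 to 50, and the highest held 140. At least 5 UMIs were found in 301 cells and at least 10 in 274, while 58 cells had none. Droplets also catch free RNA, and Tuft-3 cells, which are not endocrine, show its size: 7 of 494 of them (1.42%) had a Neurog3 UMI, against 85.2% of the progenitors. With every cell thinned to 3000 UMIs, which left out 1 progenitor and 2 Tuft-3 cells that were shallower, the shares were 79.5% and 0.319%. The median depths were 12922 and 17174 UMIs.

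The label held most of the Neurog3 signal of the whole series but not all cells with it. Of 16450 Neurog3 UMIs in 21140 cells, 76.1% lay in the 391 progenitors, as did 66.7% of the 451 cells with at least 5 UMIs and 37.5% of the 888 cells with any. Epsilon cells came next among the named subtypes, with 103 of 377 cells (27.3%) having a UMI and 34 having at least 5. MucinDuctalProgenitor cells followed with 12.8%, at a higher median depth of 18833 UMIs, then ECL cells with 10.6%, Ppy+ cells with 6.43% and Delta cells with 4.17%. After thinning to 3000 UMIs the shares were 15.3% in Epsilon, 6.65% in ECL and 5.02% in MucinDuctalProgenitor cells. As a level, Neurog3 in the progenitors was higher than in the hormone-named cells by 4.68 ± 0.66 on the log2 scale (SD over 4 mice, 1 CPM added) and higher than in MucinDuctalProgenitor cells by 6.01 ± 0.44 (2 mice). The label was built on these counts, so this and every other difference between subtypes is a description with no test.

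A second deposited table sorts the same cells into 8 broad types, and it divided the progenitors. It named 333 of them EEC and 57 Tuft/EEC.Progenitor, and the latter are called progenitor-named here; 1 cell was named Tuft. Of the MucinDuctalProgenitor cells, 148 of 156 (94.9%) bore the name Tuft/EEC.Progenitor, whereas all 377 Epsilon cells were named EEC. In the clustering behind that table the 57 progenitor-named cells shared cluster 13 with those 148, and 330 progenitors shared cluster 9 with 356 Epsilon cells. Progenitor-named cells were 11.1% (95% interval 3.71% to 24.1%), 16.9% (11.5% to 23.4%), 14.1% (7.51% to 23.4%) and 12.6% (6.70% to 21.0%) of the progenitors by mouse. All 4 intervals overlapped. The progenitor-named cells numbered 5, 28, 12 and 12, so that 3 of the 4 sums rest on fewer than 20 cells.

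Of 17 measured commitment factors, 14 were at least 2-fold higher in the EEC-named than in the progenitor-named cells of every mouse and 0 were lower, where 4.43% of 9114 genes were higher and 2.41% lower. Sox4, Hes6 and Mlxipl were the 3 that did not pass. The limits for a count of 0 in the progenitor-named sums were 39.7, 6.68, 17.9 and 15.1 CPM by mouse. A gene of low level can thus pass with no UMI in those sums, here and in the other lists compared between these groups. Neurog3 stood in the progenitor-named cells at 689, 514, 939 and 558 CPM and in the EEC-named cells at 2871, 2734, 2698 and 2676 CPM. A Neurog3 UMI was found in 24 of 57 progenitor-named cells (42.1%, thinned 32.0%) and in 309 of 333 EEC-named cells (92.8%, thinned 87.9%). Insm1, a zinc-finger factor that represses non-endocrine genes, had the same order, at 305, 254, 227 and 181 CPM and then 903, 1172, 899 and 1116 CPM. Neurod1, the bHLH factor that Neurog3 switches on, had UMIs in 1 of 57 progenitor-named cells and 276 of 333 EEC-named cells, and pooled levels of 7.86 and 822 CPM. Pax4, a paired-box factor, had UMIs in 0 of 57, which allows a share of cells with a UMI of up to 5.26%, and in 113 of 333. This limits cells with a UMI, not cells that express the gene. All 3 of Neurog3, Insm1 and Neurod1 were found together in 1 of 57 progenitor-named and 257 of 333 EEC-named cells. None of the 3 was found in 24 of the 57 and in 1 of the 333.

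Against MucinDuctalProgenitor cells, 15 of the 16 measured commitment factors were higher by at least 2-fold in both mice with at least 20 cells of each kind (2-week mouse 2 and 4-week mouse 2), and 0 were lower. In that comparison 9.28% of 9216 genes were higher and 7.0% lower by the same rule, and the median log2 ratio was 5.94 for the list and 0.25 for all genes. Nkx2-2, a homeodomain factor, stood at 257 and 429 CPM in the 2-week mice and 227 and 320.5 CPM in the 4-week mice against 8.76 and 0 CPM in MucinDuctalProgenitor cells. Neurod2, another bHLH factor, stood at 142 and 204 CPM in the 2-week mice and 159.8 and 198 CPM in the 4-week mice and was not detected in either MucinDuctalProgenitor sum. Sox4, an SRY-box factor active in many progenitors, was the exception, at 3732, 3866, 3359.9 and 3459 CPM against 2969 and 4397 CPM, so that the kinds of cell overlapped.

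Against the hormone-named cells the commitment list split. By the same rule in all 4 mice 6 of 17 factors were higher and 3 lower, where 3.26% of 9319 genes were higher and 5.24% lower. The 6 were Neurog3, Sox4, Hes6, Rcor2, Neurod2 and Pax4. Pax4 stood at 55.8, 67.4, 80.4 and 97.2 CPM against 6.09, 26.8, 8.61 and 16.2 CPM in hormone-named cells, and Neurod2 at 142, 204, 159.8 and 198 against 24.1, 54.6, 23.5 and 25.9 CPM, with no overlap of the groups for either. ECL cells alone had Pax4 at 20.8, 60.5, 13.4 and 32.0 CPM, so that those of 2-week mouse 2, where 27 of 71 cells had a UMI, overlapped with the progenitors. The 3 lower factors were Isl1, Pax6 and Mlxipl. Isl1, a LIM-homeodomain factor of maturing endocrine cells, stood at 69.0, 133, 144 and 102 CPM against 977, 975, 797 and 962 CPM, and had UMIs in 0 of 57 progenitor-named, 89 of 333 EEC-named and 359 of 377 Epsilon cells. ECL cells, with Isl1 UMIs in 26 of 217, were low as well. Pax6 stood at 83.7, 38.4, 35.7 and 61.4 CPM against 376, 443, 334 and 417 CPM. Neurod1 belonged to neither side, at 0.42 ± 0.25 log2 over the hormone-named cells (SD, 4 mice), and its level there was 465, 652, 407 and 499.7 CPM.

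**Figure D2:**
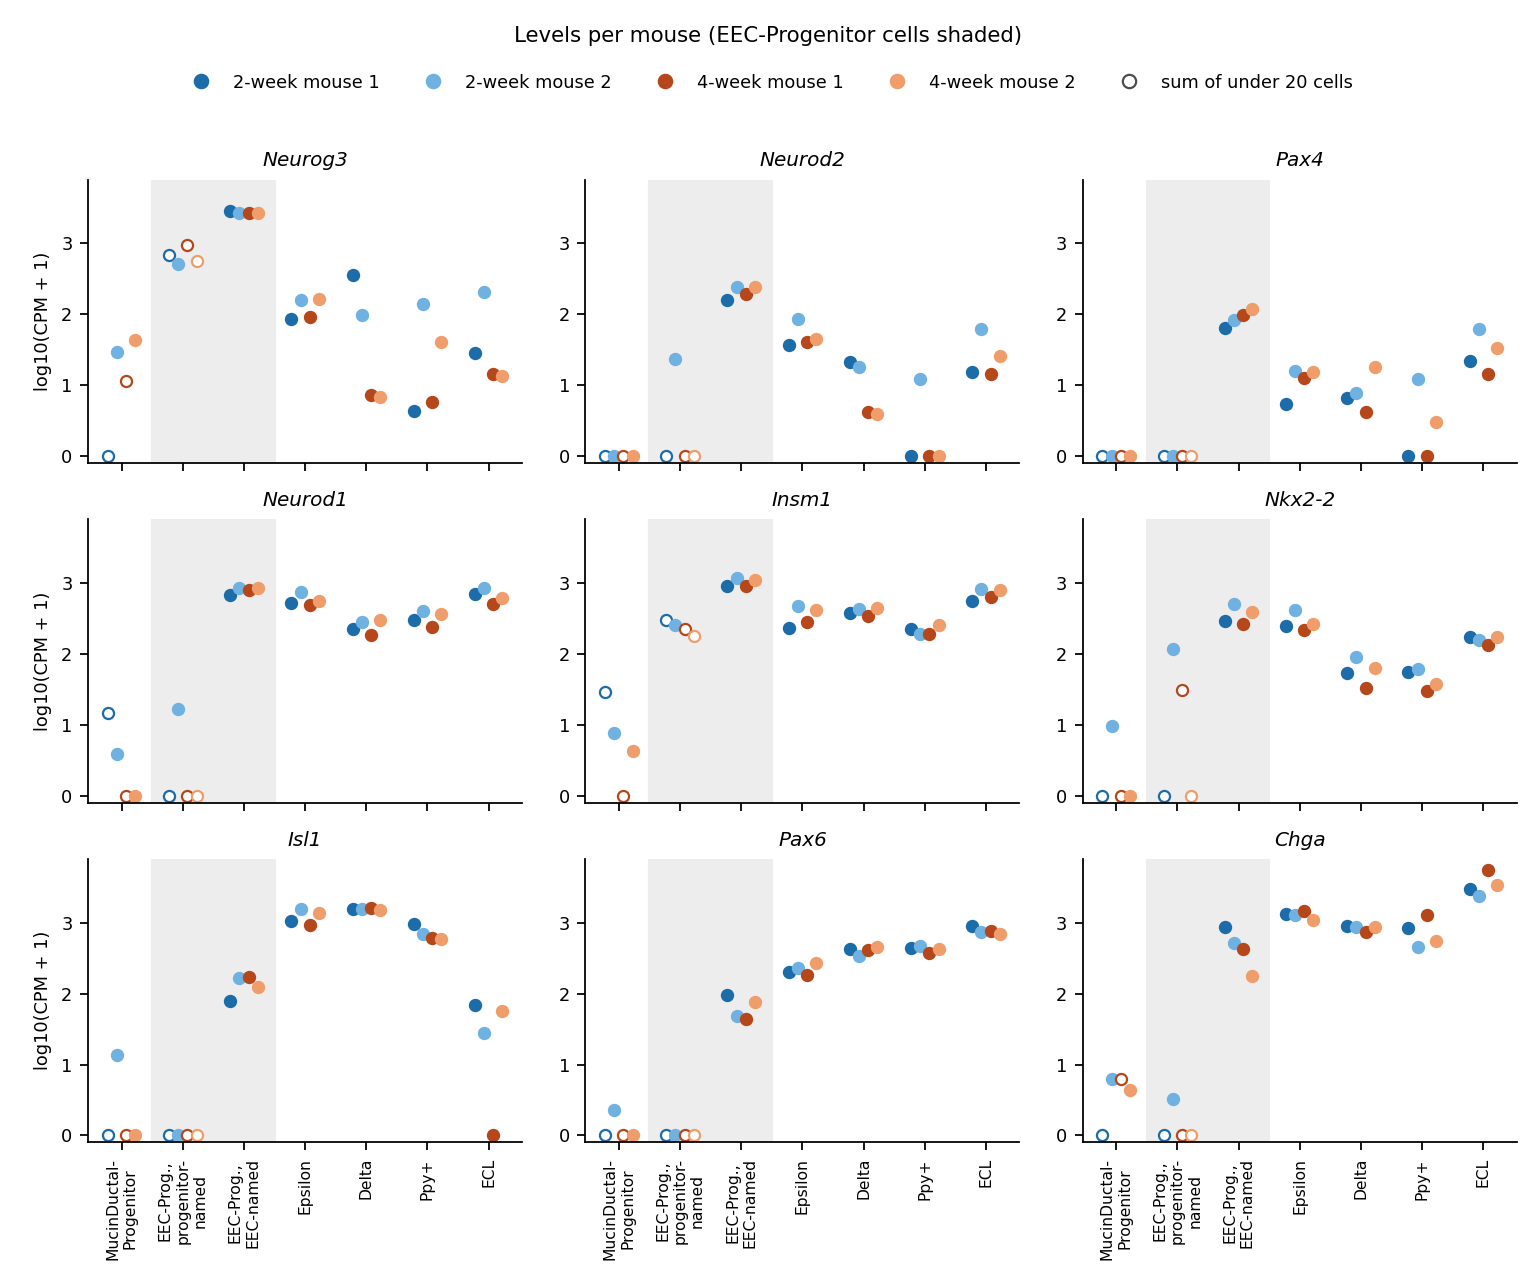
Level of 9 genes in each mouse as log10(CPM + 1), across MucinDuctalProgenitor cells, the progenitors divided by their name in the table of 8 types (shaded) and the 4 hormone-named subtypes. Each point is the sum of 1 mouse, open where it rests on under 20 cells. Neurog3 peaks in the EEC-named progenitors, and Neurod1 is lower in progenitor-named than in EEC-named cells. Isl1 and Pax6 are higher in the Epsilon, Delta and Ppy+ cells than in any progenitor sum.

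Genes reported to follow Neurog3 directly in pancreatic and intestinal progenitors, here called the Neurog3 wave, were mostly above both other kinds of cell. The list shares Neurog3, Sox4, Hes6, Rcor2, Pax4, Nkx2-2, Runx1t1 and Neurod2 with the commitment list, so the counts of the lists are not independent. Both lists hold Neurog3, which names the label, and both were chosen with earlier results of these data known. Their counts beside the background are therefore a description and no test. Of 22 measured, 20 were at least 2-fold higher than in MucinDuctalProgenitor cells in both mice (background 9.28%) and 16 were at least 2-fold higher than in hormone-named cells in all 4 (background 3.26%), with medians of 4.37 and 2.49 log2. Over Epsilon cells alone, 16 were higher and 1 lower, where 2.97% of 9110 genes were higher and 3.4% lower. Summed over the list, the level was 13969, 13218, 12816 and 12851 CPM in the progenitors and 4622, 4923, 3770.5 and 3708 CPM in hormone-named cells, so that the groups did not overlap.

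The wave held proteins of several kinds. Tubb3, a tubulin typical of neurons, stood at 1076, 735, 1005 and 989.5 CPM against 89.7 to 191 CPM in hormone-named cells. Amotl2, a junction protein of the angiomotin family, stood at 285, 317, 222 and 224 against 15.2 to 32.9 CPM, and Btbd17, a BTB-domain protein, at 405, 335, 396 and 369 against 39.1 to 59.5 CPM. In all 3 the lowest progenitor sum lay above the highest hormone-named sum. Rcor2, a corepressor, stood at 167, 164, 127 and 138 CPM, Cbfa2t3, another corepressor, at 540.3, 493, 372 and 411 CPM, and Mdk, a secreted heparin-binding growth factor, at 627, 989, 785 and 886 CPM. Their hormone-named sums ranged over 14.6 to 39.6, 68.0 to 93.3 and 138 to 319 CPM, again below every progenitor sum. Within the progenitors, 17 of 22 wave genes were at least 2-fold higher in the EEC-named than in the progenitor-named cells of every mouse and 1 was lower (background 4.43% and 2.41%). Cbfa2t3 (pooled 414 and 468 CPM), Hes6 (739.5 and 928 CPM) and Sox4 (4511 and 3495 CPM) were within 1.5-fold between these groups.

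Of 10 measured genes of cell cycle control (inhibitors of cyclin-dependent kinases, D-type cyclins and growth arrest genes), 5 were at least 2-fold higher than in MucinDuctalProgenitor cells in both mice and 2 lower (background 9.28% and 7.0%). The 5 were Cdkn1a, Cdkn1c, Cdkn2d, Btg2 and Gadd45a, and the 2 were the cyclins Ccnd1 and Ccnd2. Over hormone-named cells Gadd45a was higher and Cdkn1c lower, 1 of 10 each (background 3.26% and 5.24%). The hormone-named subtypes, pooled here, differed among themselves. All 13 genes of the list summed to a mean of 6002 CPM in Epsilon cells. The means were 3243, 2772 and 2147 CPM in Delta, ECL and Ppy+ cells, all below the 3675 CPM of the progenitors. Cdkn1a, an inhibitor of cyclin-dependent kinases, stood at 1424 and 778 CPM in the 2-week mice and 1042 and 843 CPM in the 4-week mice, against 97.3 and 106 CPM in MucinDuctalProgenitor cells and 2595, 1718, 1914 and 1542 CPM in hormone-named cells. Every progenitor sum was below the hormone-named sum of its mouse, and in the 2 mice compared it was above the MucinDuctalProgenitor sum. The pooled level was 134 CPM in progenitor-named and 1089 CPM in EEC-named cells. Cdkn1c, another inhibitor, stood at 119, 184, 240.1 and 266 CPM against 20.6 and 29.8 and 1185, 702, 1153 and 1027 CPM. Gadd45a, a growth arrest gene, stood at 404, 244, 508 and 426 CPM and was above both, at 47.8 and 69.6 and 46.4 to 66.8 CPM. Ccnd1, cyclin D1, stood at 7.34, 28.9, 12.9 and 16.2 CPM against 71.6 and 119 CPM in MucinDuctalProgenitor cells. Genes of the G2 and M phases summed to 110.1, 146, 113 and 299 CPM, and 1 cell held 223 of the 351 UMIs in 4-week mouse 2. The proliferating acinar cells of the same mice had a mean of 2218 CPM for that list. Genes of the S phase summed to 219, 278, 258 and 288 CPM, beside 276 and 249 CPM in the MucinDuctalProgenitor cells of 2-week mouse 2 and 4-week mouse 2. In every mouse they were above hormone-named cells, which had 146 to 209 CPM, and below proliferating acinar cells, which had 467 to 671 CPM.

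Genes of Notch signalling differed in both directions. Dll3, an atypical ligand that dampens Notch in the cell that makes it, stood at 175 and 146 CPM in the 2-week mice and 221 and 155 CPM in the 4-week mice, against 12.5 and 6.63 CPM in MucinDuctalProgenitor and 11.3 to 21.2 CPM in hormone-named cells. Dll4, an activating ligand, ranged over 42.6 to 60.3 CPM against 11.6 and 9.95 and 13.6 to 21.4 CPM. Mfng, a fringe enzyme that adds sugars to Notch receptors, stood at 112, 101, 88.3 and 113 CPM against 3.44 and 3.32 and 10.3 to 19.8 CPM. For all 3 genes every progenitor sum was above every sum of the other 2 kinds of cell. Lfng, another fringe, ranged over 47.6 to 60.3 CPM, above hormone-named cells (4.93 to 8.95 CPM) but not above MucinDuctalProgenitor cells (55.0 and 79.6 CPM).

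Hes1, the Notch target that represses Neurog3, stood at 1.47, 10.7, 7.94 and 12.8 CPM, against 102 and 59.7 CPM in MucinDuctalProgenitor cells. Notch1, a receptor, ranged over 2.98 to 8.68 CPM against 37.8 and 23.2 CPM, and Jag1, a ligand of the duct, over 2.94 to 6.61 CPM against 22.5 and 16.6 CPM. All 3 were lower in the progenitors in both mice compared. Between the EEC-named and progenitor-named cells 1 of 12 Notch genes was higher, Mfng, and 1 lower (background 4.43% and 2.41%). The lower gene was Dll1, the ligand classically tied to Neurog3, pooled at 35.9 CPM in progenitor-named and 5.48 CPM in EEC-named cells, which was also the 1 wave gene that was lower. In the whole list 5 of 13 genes were higher and 3 lower than in MucinDuctalProgenitor cells (background 9.28% and 7.0%), and 6 of 12 were higher and 0 lower than in hormone-named cells (background 3.26% and 5.24%).

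The factors that choose a hormone summed to 1853, 2047, 2030.3 and 1899 CPM in the progenitors and 3246, 3669, 2734 and 3463 CPM in hormone-named cells, which was lower in every mouse but by less than 2-fold. Of 15 subtype factors measured against hormone-named cells, 8 were at least 2-fold lower in every mouse and 1 was higher (background 5.24% and 3.26%), with a median of -1.49 log2 against 0.08 for all genes. Hhex, of the somatostatin lineage, ranged over 5.11 to 16.2 CPM against a mean of 1557 CPM in Delta cells. Etv1 ranged over 42.6 to 85.9 CPM against 159 to 227 CPM and Pdx1, a factor of pancreas and duodenum, over 27.9 to 41.7 CPM against 83.8 to 129.7 CPM. For these 3 no progenitor sum reached the values it is set against. Against MucinDuctalProgenitor cells, 9 of 13 subtype factors were higher and 0 lower (background 9.28% and 7.0%).

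Hormone transcripts were low. The 14 hormone genes together made 452, 110.3, 379 and 259 CPM in the progenitors and 164692, 79251, 225286 and 145244 CPM in hormone-named cells, a difference of -8.51, -9.48, -9.21 and -9.13 log2 by mouse. In single cells hormone genes took a median of 0.00829% of UMIs and at most 0.781%. No progenitor reached 1% (0 of 391, which allows a share of up to 0.767%), while 71.6% of Epsilon, 98.6% of Delta, 100% of Ppy+ and 19.8% of ECL cells did. Ghrl, ghrelin, stood at 255, 22.3, 283 and 93.8 CPM against a mean of 173763 CPM in Epsilon cells, and had a UMI in 40.4% of progenitors and in 37.0% of Tuft-3 cells. After thinning to 3000 UMIs these shares were 16.4% and 11.1%. Cck, cholecystokinin, stood at 144, 44.2, 59.5 and 77.6 CPM against 151 to 309 CPM in hormone-named cells and 0.938 and 0 CPM in MucinDuctalProgenitor cells. In 2-week mouse 1 the 5 progenitor-named cells held it at 941 CPM, and the EEC-named cells at 44.6 CPM. Over the MucinDuctalProgenitor cells the hormone sum changed sign between mice, at -1.92 and 1.69 log2.

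The secretory granule was present in part. All 10 measured granule genes were at least 2-fold higher than in MucinDuctalProgenitor cells in both mice (background 9.28%), and 11 of 13 were at least 2-fold lower than in hormone-named cells in all 4 (background 5.24%). Chga, chromogranin A, stood at 785 and 427 CPM in the 2-week mice and 350.3 and 145 CPM in the 4-week mice, against 5.32 and 3.32 CPM in MucinDuctalProgenitor and 1410.2 to 1965 CPM in hormone-named cells. It had UMIs in 1 of 57 progenitor-named and 192 of 333 EEC-named cells. Pcsk1, the convertase that first cuts prohormones, had the smallest difference from hormone-named cells in the list, -0.64 ± 0.25 log2 (SD, 4 mice), at 80.8, 68.2, 114 and 74.2 CPM against 94.9 to 151 CPM. Scg5, a chaperone of the convertase Pcsk2, stood at 172, 132, 228 and 176 against 588 to 959 CPM, while Pcsk2 itself ranged over 0 to 7.67 against 273 to 578 CPM.

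Chgb, chromogranin B, ranged over 6.95 to 67.8 CPM against 3652 to 8427 CPM. Scg2, secretogranin II, was not detected in 3 of the 4 progenitor sums, whose limits for a count of 0 are 4.40, 1.24 and 2.98 CPM, and ranged over 75.7 to 156 CPM in hormone-named cells. Mboat4, the enzyme that acylates ghrelin, stood at 32.3, 37.2, 25.8 and 13.6 CPM, and its pooled level was 0 in progenitor-named and 35.2 CPM in EEC-named cells. Of the genes of excitability and exocytosis, 11 of 13 were higher than in MucinDuctalProgenitor cells (background 9.28%) and 8 of 17 lower than in hormone-named cells (background 5.24%). Syt13, a synaptotagmin, overlapped with hormone-named cells, at 157, 190.1, 155 and 155 against 124, 159, 139.7 and 162 CPM. Abcc8, a subunit of the ATP-sensitive potassium channel, ranged over 3.31 to 5.11 against 107 to 150.0 CPM.

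Genes of the mucin and duct programme were lower than in MucinDuctalProgenitor cells. By the rule of 2-fold in both mice, 14 of 23 were lower and 2 higher (background 7.0% and 9.28%). Spp1, osteopontin, stood at 173, 301, 99.2 and 95.5 CPM against 4395 and 2411 CPM, Clu, clusterin, at 1524, 1203, 814 and 1515 against 9376 and 5999 CPM, and Muc6, a gland mucin, at 60.2, 131, 232 and 93.8 against 721 and 491 CPM. No progenitor sum reached a MucinDuctalProgenitor sum for any of them. Between EEC-named and progenitor-named cells 5 of 21 measured members were lower and 1 higher (background 2.41% and 4.43%). The pooled levels of Clu were 4444 CPM in progenitor-named and 590.0 CPM in EEC-named cells, those of Gkn3, a gastrokine, 2731 and 589 CPM, and those of Sox9, a factor of duct and progenitor cells, 276 and 74.0 CPM.

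Krt7, a duct keratin, went the other way. It stood at 1401 and 1421 CPM in the 2-week mice and 1890.3 and 1694 CPM in the 4-week mice, against 272 and 249 CPM in MucinDuctalProgenitor cells and 516 to 627 CPM in hormone-named cells, with no overlap. Krt19, another duct keratin, ranged over 48.5 to 119 CPM against 687 and 322 CPM. Tff3, a trefoil peptide of mucous cells, was the other member above MucinDuctalProgenitor cells, at 191, 926, 168 and 149 CPM, but 3 cells held 81.5%, 19.5%, 88.2% and 58.9% of its UMIs in the 4 mice. Of the tuft cell genes, 15 of 17 were lower than in MucinDuctalProgenitor cells and 0 higher (background 7.0% and 9.28%). Pou2f3, the factor that specifies tuft cells, stood at 0, 4.13, 1.98 and 5.11 CPM against 90.1 and 82.9 CPM and was found in 10 of 57 progenitor-named and 0 of 333 EEC-named cells, which allows a share of cells with a UMI of up to 0.901%. Ltc4s, a leukotriene synthase of tuft cells, had pooled levels of 706 and 52.3 CPM in those 2 groups. Of 8 tuft genes measured between them, 0 were higher and 2 lower in the EEC-named cells of every mouse (background 4.43% and 2.41%). Ascl2, a bHLH factor of stem cells, ranged over 0 to 10.9 CPM against 133 and 179 CPM in MucinDuctalProgenitor cells.

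**Figure D3:**
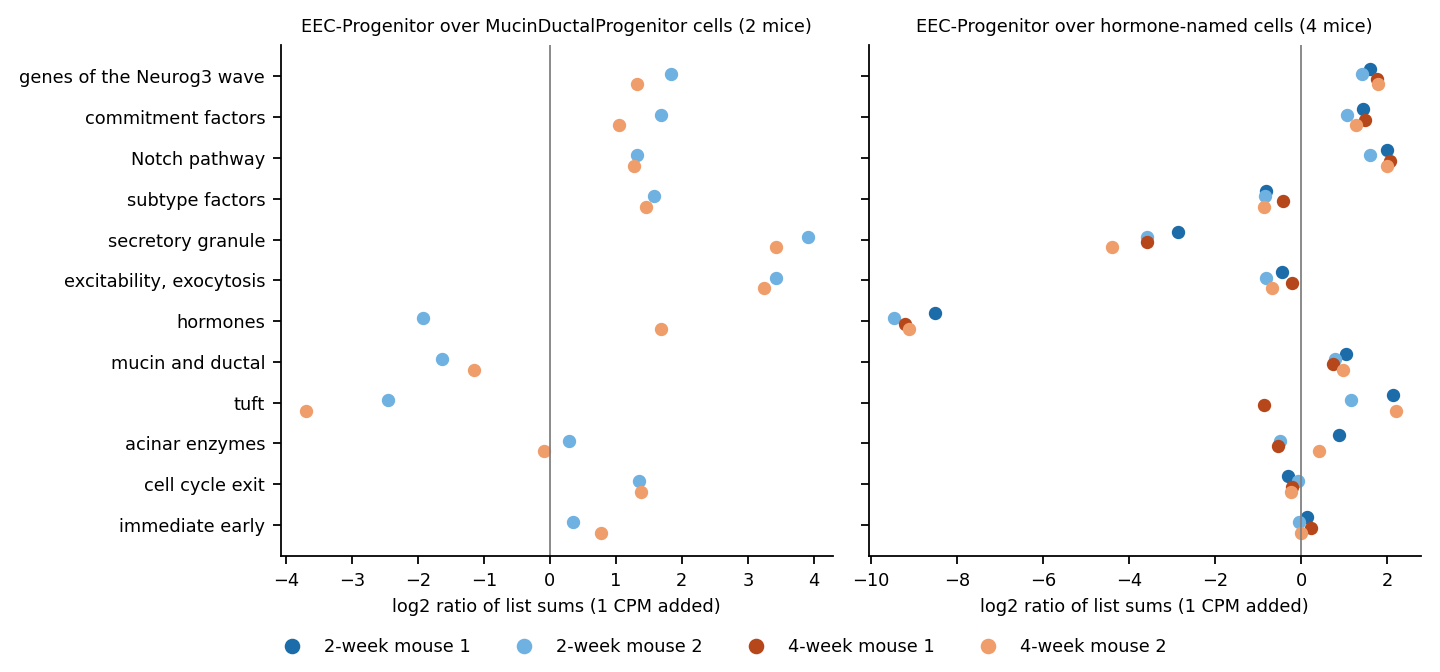
log2 ratio of the summed level of each gene list, progenitors over MucinDuctalProgenitor cells (left, 2 mice) and over hormone-named cells (right, 4 mice), 1 point per mouse. Secretory granule and hormone sums lie below 0 on the right in every mouse, the wave, commitment and Notch sums lie above 0 on both sides, and hormone sums on the left lie on both sides of 0. Single Notch genes went both ways on the left, where 5 of 13 were higher and 3 lower by at least 2-fold in both mice.

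Genes above all 8 other subtypes in every mouse with at least 20 cells of both kinds numbered 400 of the 3257 considered. For MucinDuctalProgenitor and Tuft-1 cells these were 2 mice only. No such count was made for the other subtypes, so the 400 have no background to be read against. The 3257 had a mean of at least 50 CPM in the progenitors themselves, and any log2 ratio above 0 over another subtype counted. Ranked by the smallest of those ratios, Neurog3 came first at 2.90 log2, followed by Cldn11 at 2.61, Ifitm1 at 2.58, Amotl2 at 2.55 and Epb42 at 2.32. Cldn11, a tight junction claudin, stood at 63.1, 47.9, 43.7 and 54.5 CPM and Epb42, a membrane skeleton protein best known from red cells, at 129, 113, 117 and 83.5 CPM. Ifitm1, an interferon-induced membrane protein, ranged from 33.1 to 423 CPM and was highest in 2-week mouse 1 and lowest in 2-week mouse 2. The list of interferon and MHC genes stood at 3033, 446, 1334 and 1044 CPM, and 3 cells held 47.1%, 11.1%, 42.1% and 7.76% of its UMIs. The rest came to 1605, 396, 772 and 963 CPM, again highest in 2-week mouse 1 and lowest in 2-week mouse 2. Other cells had the same highest and lowest mice for this list, with 2049, 667, 1196 and 1334 CPM in hormone-named cells. Tuft-3 cells had 5286, 2099, 2912 and 4296 CPM. Slc7a5, a transporter of large amino acids, stood at 213, 139, 222 and 173 CPM, Mycl, a MYC family factor, at 156, 136, 117 and 139 CPM, Mmp7, a matrix protease, at 149.8, 355, 221 and 117 CPM, and Miat, a long noncoding RNA, at 311, 217, 216 and 163 CPM. Of the list's first 20, the wave or Notch lists also held Neurog3, Amotl2, Mfng, Btbd17, Cbfa2t3, Dll3, Hes6 and Tubb3. Over MucinDuctalProgenitor cells alone, Neurod2, Neurod1, Insm1, Stxbp5l and Vwa5b2 led by the smallest ratio over mice, and Ascl2, Colca2, Spp1, Kcne3 and Pou2f3 were furthest below. Stxbp5l, a tomosyn that restrains vesicle fusion, stood at 163, 224, 178 and 153 CPM against 1.25 and 0 CPM. The genes furthest below hormone-named cells were Pyy, Ppy, Ghrl, Rbp4 and Sst. Rbp4, the plasma carrier of retinol, stood at 16.2, 9.50, 13.9 and 21.3 CPM against 3827 to 8311 CPM. These genes were ranked on the counts that made the label and are a description of it.

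Digestive enzyme RNA was present in every progenitor library, and enzyme genes differed in their proportions. Of 24 measured, 3 were at least 2-fold higher than in MucinDuctalProgenitor cells and 0 lower (background 9.28% and 7.0%), and 0 were higher or lower than in hormone-named cells (background 3.26% and 5.24%). The enzyme list summed to 42433, 17614, 11175 and 23150.2 CPM in the progenitors and 22878, 24686, 16295 and 17361 CPM in hormone-named cells, so that the groups overlapped. Ctrb1, chymotrypsinogen, stood at 18522, 9735, 3234 and 10380.2 CPM, and 3 cells held 54.4%, 51.5%, 17.1% and 45.4% of its UMIs. Pnliprp2, a lipase-related protein, had 4.10, 2.20, 6.24 and 4.43 UMIs for each UMI of Prss2, a trypsinogen, in the progenitor-named cells and 0.533, 0.212, 0.707 and 0.583 in the EEC-named cells. Acinar cells of the same mice had 0.0512, 0.0532, 0.0609 and 0.0528, and Epsilon cells 0.0755, 0.104, 0.0683 and 0.0767. In every mouse the ratio was highest in progenitor-named cells and above the acinar ratio in EEC-named cells. MucinDuctalProgenitor cells had 0.911, 0.144, 0.485 and 0.239, from sums of 5, 118, 13 and 20 cells. The ratio to Prss2 was computed for 3 other genes. Clps, colipase, had 18.4, 18.4, 17.2 and 9.75 in progenitor-named, 3.96, 8.84, 6.95 and 3.12 in EEC-named and 1.87, 2.40, 2.66 and 1.65 in acinar cells, the same order as Pnliprp2. MucinDuctalProgenitor cells had 3.11, 5.40, 7.80 and 2.55 for Clps, which overlapped with the EEC-named cells. Ctrb1 had 67.9, 102, 10.4 and 43.1 in progenitor-named, 9.59, 14.2, 8.60 and 6.84 in EEC-named and 6.82, 9.31, 9.36 and 8.03 in acinar cells. Its EEC-named ratio was thus below the acinar ratio in both 4-week mice. MucinDuctalProgenitor cells had 51.9, 42.7, 55.4 and 33.9 for Ctrb1. Try4, another trypsinogen, had 2.10, 0.943, 1.76 and 1.497 in progenitor-named and 1.84, 0.716, 1.43 and 1.45 in acinar cells.

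As a level, Pnliprp2 stood at 3856, 603, 2315 and 3229.8 CPM in progenitor-named cells, 715, 83.7, 256 and 521 CPM in EEC-named cells, 88.2, 93.0, 61.6 and 73.4 CPM in hormone-named cells and 1394, 1362, 1606 and 1624 CPM in acinar cells. Both progenitor groups were lowest in 2-week mouse 2. The progenitor-named sums of the other 3 mice, from only 5, 12 and 12 cells, were above their acinar sums. That of 2-week mouse 2, from 28 cells, was below its acinar sum (603 against 1362 CPM). It was found in 34 of 45, 66 of 166, 38 of 85 and 56 of 95 progenitors, and 3 cells held 34.9%, 41.1%, 40.2% and 48.0% of its UMIs.

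**Figure D4:**
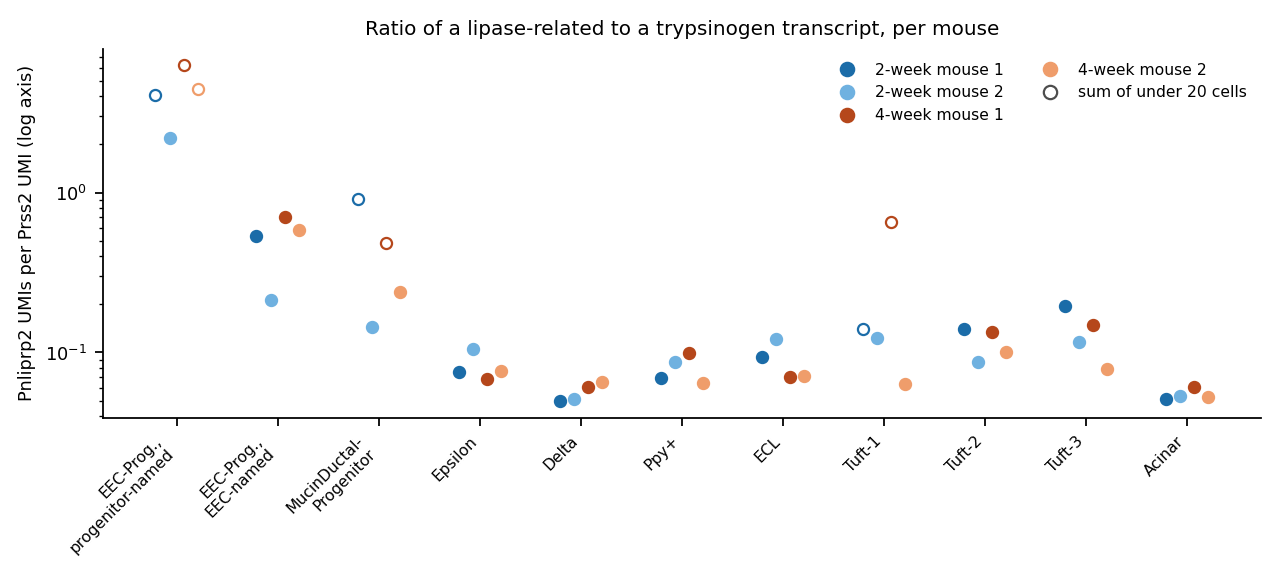
UMIs of Pnliprp2 for each UMI of Prss2, on a log axis, by kind of cell and mouse; open points are sums of under 20 cells. The progenitor-named cells lie between 2.20 and 6.24 and acinar cells between 0.0512 and 0.0609.

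Markers of other cells were low but uneven. The macrophage list summed to 141, 24.0, 493 and 14.5 CPM, and 3 cells held 90.6% of it in 2-week mouse 1 and 98.4% in 4-week mouse 1. Lists of lymphocytes, stroma with endothelium, and islet beta and alpha cells summed to 70.5, 27.3, 46.6 and 18.8, to 32.3, 34.7, 18.9 and 50.3 and to 8.81, 37.2, 9.92 and 30.7 CPM. Gcg, glucagon, had a mean of 0.709 CPM and Ins2, insulin, 6.01 CPM. EYFP, the lineage label, stood at 329, 333, 396 and 366 CPM, with no mouse apart. The log2 CPM of the 4 progenitor sums correlated at 0.928 to 0.951 across genes, which are not independent replicates.

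Few genes passed a test of 2 against 4 weeks of caerulein in the progenitors. With 2 mice at each time, a gene that did not pass is not shown to be unchanged. With edgeR's quasi-likelihood test on UMIs summed per mouse, 4 of 8833 genes (0.0453%) passed a Benjamini-Hochberg adjusted p of 0.05, 1 higher and 3 lower at 4 weeks, and 449 had an unadjusted p under 0.05. None of the 16 commitment factors, 22 wave genes, 14 subtype factors, 11 Notch genes or 10 granule genes tested was among the 4. In that order 3, 6, 2, 0 and 5 of them had an unadjusted p under 0.05. The median log2 change was -0.47 for the granule genes and -0.01 for all genes. Chgb had -1.74 (edgeR adjusted p = 0.958). With no gene filter it passed (-1.73, edgeR adjusted p = 2.66e-05), while Chga did not (-1.33, 0.936). By levels alone, both 4-week mice were above both 2-week mice for 20.2% of genes and below for 14.6%. The same held for 3 and 2 of the commitment factors, 3 and 5 of the wave genes, 3 and 4 of the granule genes, and none of the Notch genes. Neurog3 itself had a log2 change of -0.12 (SE 0.14, adjusted p = 0.983), and Neurod1 and Insm1 0.03 (SE 0.15, adjusted p = 0.992) and -0.12 (SE 0.16, adjusted p = 0.985) in edgeR's test with Benjamini-Hochberg adjustment. With DESeq2 the count over all genes was 7. It was higher without any 1 mouse, where the lone mouse left at 1 time is assumed to vary like the pair at the other. Without 4-week mouse 1, the genes ranked first by p included Xist and Tsix, of X inactivation, and the Y-linked Eif2s3y, Ddx3y and Kdm5d. On these sex-linked genes 4-week mouse 2 thus stood apart from the 2-week mice, and sex was not a term of the test.

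Glud1, mitochondrial glutamate dehydrogenase, stood at 154 and 154 CPM in the 2-week mice and at 365 and 275 CPM in the 4-week mice. The groups were apart, and the log2 change was 1.01 (SE 0.15, edgeR, Benjamini-Hochberg adjusted p = 0.0315). Its UMIs were spread over 33 of 45, 104 of 166, 64 of 85 and 73 of 95 cells, and 3 cells held 28.6%, 13.2%, 20.4% and 18.3% of them. Hormone-named cells of the same mice had 232, 224, 194 and 230.2 CPM. Without robust estimation of the spread the log2 change was the same and the edgeR adjusted p was 0.347, and without 4-week mouse 1 the change was 0.83 (edgeR adjusted p = 0.149).

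The 3 genes that fell had much of their RNA in few cells. Cym, chymosin, stood at 229 and 198 CPM and then 4.96 and 13.6 CPM (log2 change -4.50, SE 0.31, edgeR adjusted p = 0.000538), but 3 cells held 91.0% and 61.3% of its UMIs in the 2-week mice. Reg3b, a secreted lectin of injured pancreas, stood at 112 and 112 CPM and then 27.8 and 29.8 CPM (-1.99, SE 0.20, edgeR adjusted p = 0.000538), with 71.1% and 42.6% of the 2-week UMIs in 3 cells. Gm26917, a predicted gene, stood at 181 and 179 CPM and then 69.5 and 70.7 CPM (-1.40, SE 0.16, edgeR adjusted p = 0.00164), with 65.9% and 60.1% in 3 cells. The UMIs outside those 3 cells of each mouse came to 61.7, 71.5, 44.7 and 51.1 CPM for Gm26917, to 32.3, 64.5, 17.9 and 22.2 CPM for Reg3b and to 20.6, 76.9, 1.98 and 8.52 CPM for Cym. Both 2-week values were still above both 4-week values for each of the 3. Without the 5% of cells with the most UMIs, the log2 change was -4.39 for Cym (edgeR adjusted p = 0.263) and -1.19 for Reg3b (edgeR adjusted p = 0.135). Among EEC-named cells only, a choice made after seeing the data, that of Cym was -3.55 (edgeR adjusted p = 0.973). In hormone-named cells Reg3b stood at 83.5, 296, 52.3 and 29.7 CPM, so that both 4-week values were below both 2-week values there too. Cym stood there at 1.74, 45.7, 3.97 and 5.41 CPM and Gm26917 at 194, 94.3, 125 and 203 CPM, where the times overlapped.

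**Figure D5:**
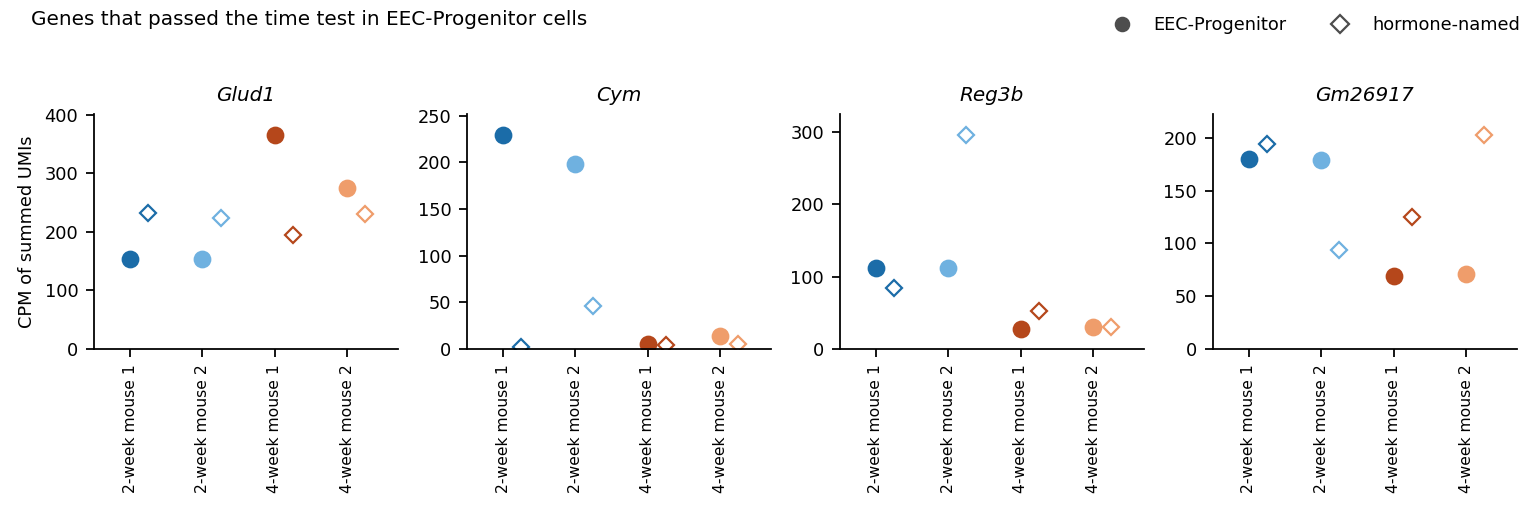
CPM of the 4 genes that passed the time test, by mouse, in the progenitors (filled circles) and in hormone-named cells (open diamonds). For Glud1 both 4-week circles (365 and 275) lie above both 2-week circles (154 and 154); for Cym, Reg3b and Gm26917 they lie below.

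Whether time acted differently in the progenitors than in hormone-named cells was tested as an interaction, with the mouse as a block. By edgeR 6 of 11738 genes (0.0511%) passed an adjusted p of 0.05, 3 in each direction, and 556 had an unadjusted p under 0.05. Glud1 was among them, with a log2 difference of 0.98 (SE 0.18, adjusted p = 0.00491). In hormone-named cells its 4-week values were 194 and 230.2 CPM against 232 and 224 CPM at 2 weeks, so that the times overlapped there. Its adjusted p was 0.0519 without robust estimation, 1.00 with DESeq2 and 0.373 in edgeR without 4-week mouse 1. Zfp36, an RNA-binding protein induced early after stimuli, had -1.25 (SE 0.23, edgeR adjusted p = 0.00491), from 55.8, 94.6, 44.7 and 35.8 CPM in the progenitors and 74.2, 132, 109 and 122 CPM in hormone-named cells. Its adjusted p was 1.00 with DESeq2, and with edgeR 0.567 with library size alone, 0.0888 without 2-week mouse 2 and 0.0693 without 4-week mouse 2. No gene of the commitment, wave, subtype factor, Notch or granule lists passed. DESeq2 passed 2 genes, none of them among the 6, and both were granule genes: Chga, with a log2 difference of -1.80, and Chgb, with -2.40 (DESeq2, Benjamini-Hochberg adjusted p = 0.0428 for both). Both 4-week mice were below both 2-week mice for each of them in the progenitors, where Chgb stood at 42.6, 67.8, 6.95 and 27.3 CPM. With edgeR the differences were -1.78 (adjusted p = 0.571) and -2.28 (0.141), and both passed without robust estimation (adjusted p = 0.000458 for both), with no gene filter, among EEC-named cells only and without any 1 of the 4 mice. Neither passed with library size alone, with DESeq2-type size factors in edgeR or without the 5% of cells with the most UMIs, and of the pair Chgb alone passed without hormone, acinar enzyme and Reg genes (edgeR adjusted p = 0.000208). Library size alone in edgeR passed 2 of the 6, Glud1 and Ins1.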

How the data were processed

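Per the submitters' processing notes, reads were processed with Cell Ranger 4.0.0 and Seurat 3.2.3 on mm10. The authors deposited UMI counts per gene and cell for each of 4 libraries, not normalized, and tables that name the type and subtype of the cells; how the names were made is not given in the sources used here. Cells were joined to their names by barcode and library. Raw counts were summed per mouse and subtype (Python 3.11.15, pandas 2.3.3, NumPy 2.4.6). CPM used all UMIs of the summed cells, and log2 ratios had 1 CPM added to both sides. A gene counted as higher or lower when it was at least 2-fold so in every mouse with at least 20 cells on both sides (progenitor-named sums excepted), among genes with a mean of at least 10 CPM on either side.

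Time and the interaction were tested with edgeR 4.0.16 in R 4.3.3 (quasi-likelihood, robust, TMM, filterByExpr), with Benjamini-Hochberg adjustment over all genes tested and a threshold of 0.05; the interaction had the mouse as a block. The edgeR fits were run on simulated data, with an outcome that is not reported here, and DESeq2 1.42.0 was an alternative. Shares had exact Clopper-Pearson intervals and exact permutation tests (SciPy 1.17.1). A count of 0 was given a limit of 3 counts. Thinned shares are expected values, with no random draw. They average over cells the exact hypergeometric chance of at least 1 UMI of the gene among 3000 UMIs of the cell.

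Alternatives were other scalings, no gene filter, no robust estimation, other cell and UMI minimums, leaving out each mouse, the 5% of cells with the most UMIs, or hormone, enzyme and Reg genes. Keeping only EEC-named cells was chosen after seeing the data. Members and gene lists were chosen with earlier results of these data known. Genes named were those of the lists, up to 20 ranked by their smallest ratio over mice with at least 50 CPM (10 for genes below MucinDuctalProgenitor cells), and those past the tests with at least 10 CPM. Promoter windows came from RefSeq on GRCm38.p6. Cells with no deposited type were left out except where named. Some members of the subtype factor list are not reported by name here.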

Additional observations from a re-analysis of the deposited data

Results flagged for a closer look

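The time effect differed between the progenitors and hormone-named cells for 6 genes by edgeR's interaction test, and all 6 are given here, although Ins1 and Dcn are below the 10 CPM set for naming and were named after their values were seen. Ins1, insulin 1, had a difference of 10.17 (log2, Benjamini-Hochberg adjusted p = 1.21e-10), from 0, 4.55, 0 and 5.11 CPM in the progenitors and 3.77, 3991, 0 and 3.48 CPM in hormone-named cells, so that 2-week mouse 2 alone was high among the latter. Without the 5% of cells with the most UMIs the difference was 0.41 (edgeR adjusted p = 1), and the adjusted p was 1.00 with DESeq2 and 1 in edgeR without 4-week mouse 2. Dcn, decorin, a stromal proteoglycan, had 3.75 (edgeR adjusted p = 0.0435), from 2.94, 2.89, 7.94 and 6.82 CPM and 30.7, 7.35, 2.65 and 1.54 CPM. Its adjusted p was 1.00 with DESeq2, and with edgeR 0.0821 with library size alone, 0.121 without robust estimation, 0.191 without the 5% of cells with the most UMIs, and 0.336, 0.0620 and 0.192 without 2-week mouse 1, 4-week mouse 1 or 4-week mouse 2. Glud1 had 0.98, and Zfp36 -1.25, with the values given above. Arc, an activity-induced gene, had -2.50 (edgeR adjusted p = 0.00491), from 16.2, 47.5, 11.9 and 5.11 CPM and 14.8, 40.9, 24.5 and 48.3 CPM. Its adjusted p was 1.00 with DESeq2, and with edgeR 0.151 with library size alone, 0.0938 without 2-week mouse 2 and 0.395 without 4-week mouse 2, where the difference was -1.58. Gm2663, a predicted gene, had -1.08 (edgeR adjusted p = 0.0143), from 131, 43.0, 66.5 and 147 CPM and 135, 63.6, 181 and 312 CPM, where the times overlapped in the progenitors. Without the 5% of cells with the most UMIs the difference was -0.22 (edgeR adjusted p = 1). The adjusted p was 1.00 with DESeq2, and with edgeR 0.567 with library size alone, 0.0696 without robust estimation and 0.257 without 4-week mouse 1.

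Cells with no deposited type also held Neurog3. Of 7778 such cells, 155 had a UMI and 39 had at least 5, and the 39 came from all mice (8, 14, 5 and 12). EYFP RNA was found in 15 of the 39, by mouse in 8 of 8, 4 of 14, 0 of 5 and 3 of 12. Pooled, they stood at 1463 CPM for Neurog3, 490 CPM for Insm1 and 328 CPM for Neurod1, with Muc6 at 2818 CPM, Spp1 at 2957 CPM and Ghrl at 632 CPM, and their median depth was 12710 UMIs against 4021.5 over all cells with no type. Whether they are doublets was not tested.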

How the results depend on the processing

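No 2-week mouse could be paired with a 4-week mouse, because the replicate numbers were given in accession order and pair no mice. The interaction test and the log2 ratios did compare kinds of cell within the same mouse. Leaving out 1 mouse moved the difference between times in the share of enteroendocrine cells from -13.3 to 12.7 points, reversed without 2-week mouse 2 (12.7) and without 4-week mouse 1 (1.70). The share of typed cells ranged from -1.92 to 1.20 points and the log2 ratio to MucinDuctalProgenitor cells from -0.69 to 1.99, and both reversed without 2-week mouse 2 (1.20 and -0.69). The count of genes past the time test was 4, and 7 with DESeq2 (all 4 among them), 50 with no gene filter, 195 and 141 without 2-week mouse 1 or 2, and 12 and 21 without 4-week mouse 1 or 2. The interaction count was 6, and 2 with DESeq2 (Chga and Chgb, 0 of the 6), 2 with library size alone (Glud1 and Ins1; it moved the median of all genes to 0.18), 27 with no filter, 20 with EEC-named cells only (chosen after seeing the data), and 16 to 81 without 1 mouse. The hormone list over MucinDuctalProgenitor cells (-0.11 log2) reversed with sums of 10 cells or more (0.68), as a mean over cells (0.14), with EEC-named cells only (0.0715) and without 2-week mouse 2 (1.69). The small time effect of Neurod1 (log2) was -0.0400 without the 5% of cells with the most UMIs and -0.0720 to 0.158 without 1 mouse, and that of Insm1 was -0.29 to 0.0351 without 1 mouse, so that both changed sign. Glud1 lost its time call without robust estimation (edgeR adjusted p = 0.347) and without 4-week mouse 1 (0.149), and Cym with EEC-named cells only (0.973). Among named genes, 72 of 87 values kept direction and call over the settings other than leaving out a mouse, and 33 of 44 over those. Those values were the time effects of Glud1, Cym, Reg3b, Gm26917, Neurog3, Neurod1 and Insm1 and the interactions of Glud1, Arc, Zfp36 and Gm2663. Neurog3, Neurod1 and Insm1 had no call to lose, and Ins1 and Dcn were not counted. The tally is therefore not a measure of how stable the called genes were. The share of cells with a Neurog3 UMI, here a mean over the 4 mice and not over all cells, was 78.4% thinned to 3000 UMIs, 73.0% thinned to 1500 and 84.0% not thinned. Where not stated, the cause was not tested. Precision is limited by 45 cells in 2-week mouse 1 and by 2 mice per time. In the time fit without 4-week mouse 1, 4-week mouse 2 stood apart from the 2-week mice on sex-linked genes. Sex was not a term of any fit, and its part in the counts of genes past the tests was not tested.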

Other observations

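The 333 EEC-named progenitors were also described by their own Neurog3 count, as a description with no test, since cells of a mouse are not replicates. There were 24 cells with 0 Neurog3 UMIs, 50 with 1 to 9, 126 with 10 to 39 and 133 with 40 or more, and the median depth was 11007, 11549.5, 12064 and 13374 UMIs. Isl1, of maturing endocrine cells, was found in 54.2%, 38.0%, 24.6% and 19.5% of them in that order, the reverse of the order of depth, while its pooled level was 235, 306, 146 and 84.1 CPM, highest with 1 to 9 UMIs. Pax6, the other such factor, did not share that order, at 8.33%, 12.0%, 10.3% and 19.5%. Sox9, of duct and progenitor cells, was most frequent in cells with 0 Neurog3 UMIs, at 66.7%, 34.0%, 36.5% and 42.1%. Its pooled level was 235, 74.5, 62.6 and 61.0 CPM. Clu and Gkn3 of the mucin and duct programme were instead highest with 40 or more, at 145, 188, 631 and 738 CPM and 451, 421, 577 and 666 CPM. The neuroendocrine chaperone Scg5 had pooled levels of 350.3, 264, 177 and 160.2 CPM and was found in 91.7%, 84.0%, 68.3% and 80.5% of cells, and the cell cycle inhibitor Cdkn1a 1807, 1992, 973 and 813 CPM. Neurod2 was found in 29.2%, 76.0%, 81.0% and 83.5% of the cells and Mfng in 29.2%, 54.0%, 71.4% and 80.5%, the same order as Neurog3 and as depth. Neurod1 had no such order, at 70.8%, 96.0%, 81.0% and 82.0%. Chga, at 66.7%, 80.0%, 49.2% and 55.6%, was more frequent in both groups with fewer than 10 Neurog3 UMIs than in both groups with more.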
